A study of Mus musculus with 10 samples.

Results

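A set of 10 transcription factors that govern how the epidermis builds its layers was followed across 10 RNA sequencing libraries of mouse back skin keratinocytes. They were chosen by name, as Trp63, Sox6, Tfap2a, Grhl1, Grhl3, Ovol1, Klf4, Klf5, Zfp750 and Gata3, with earlier results of these data known, and the rule uses none of their values. All 10 were listed in every library, among 15987 genes listed in all libraries, and all 10 were among the 15958 genes tested.

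The epidermis is renewed from a basal layer of dividing keratinocytes, which detach, move through the spinous and granular layers and end as the cornified barrier. Trp63 encodes p63, the factor that sets and keeps the identity of basal keratinocytes. As cells leave the basal layer, factors such as Ovol1, Klf4, Zfp750 and the grainyhead-like proteins act downstream of p63 or beside it to stop division and to switch on the genes of the barrier, while Gata3 and the AP-2 factor Tfap2a act across the epidermis and its appendages.

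The libraries were made from keratinocytes released from dispase-separated back skin epidermis by trypsin. Control mice are labelled wild type, and knockout mice are labelled Gsdma1KO/KO;Gsdma3fx/fx;K14-Cre, in which the Krt14 promoter limits the deletion of Gsdma3 to keratinocytes of the epidermis and follicle and their descendants while the Gsdma1 allele is labelled as a knockout. The back skin of both genotypes was rubbed 2 times a day for 3 days, either with acetone and olive oil mixed 4 to 1 (AOO), which strips skin lipids, or with water, and the labels give day 5. The labels give neither age nor sex, and nothing in them says whether the controls carried Cre. There were 3 control AOO, 2 control water, 3 knockout AOO and 2 knockout water libraries. Whether the libraries are separate animals is not stated. The p-values therefore speak only of library-to-library spread, part of which may be technical.

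Values are normalised read counts, that is, reads per gene scaled so that libraries can be compared, from 15914663 to 21812292 reads a library. The keratinocyte markers Krt5 (211026 to 396203 counts) and Krt14 (156510 to 320163) were high in every library, as the label has it. Gsdma3 was at 0 to 2.65 counts in knockout libraries and at 62.5 to 283 in control libraries, whereas Gsdma, the mouse symbol for Gsdma1, was still counted in knockout libraries (170 to 843 against 200 to 732), and the labels do not say which exons that allele lacks. Of other markers, 4 Y-linked genes summed to 0 in all water libraries and to 3583 to 4967 in all AOO libraries. Treatment and the sex of the mice, or whatever else goes with Y-linked transcripts, thus cannot be told apart in any AOO against water difference. Transcripts of hair shaft and inner root sheath summed to 12331 counts in control water replicate 2 and 2974 in knockout AOO replicate 2, against 241 to 1145 in the others. Fewer cells of a type and less RNA per cell cannot be told apart in such bulk libraries.

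A promoter of each of 3 factors is shown because 2 of these factors, Grhl1 and Grhl3, belong to 1 family and fell together in the comparison described next, while Klf4 did not. Each runs from 250 bases before to 50 bases after the annotated start, from RefSeq on GRCm38.p6. Capitals mark the AP-2 motif GCCNNNGGC, which reads the same on both strands and is the site type bound by the family of Tfap2a.

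Grhl1: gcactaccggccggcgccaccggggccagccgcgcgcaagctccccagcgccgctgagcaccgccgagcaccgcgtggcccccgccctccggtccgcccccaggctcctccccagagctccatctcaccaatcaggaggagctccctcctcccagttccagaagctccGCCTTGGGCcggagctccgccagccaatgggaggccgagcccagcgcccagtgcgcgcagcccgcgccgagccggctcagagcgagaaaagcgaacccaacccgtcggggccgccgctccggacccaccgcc
Grhl3: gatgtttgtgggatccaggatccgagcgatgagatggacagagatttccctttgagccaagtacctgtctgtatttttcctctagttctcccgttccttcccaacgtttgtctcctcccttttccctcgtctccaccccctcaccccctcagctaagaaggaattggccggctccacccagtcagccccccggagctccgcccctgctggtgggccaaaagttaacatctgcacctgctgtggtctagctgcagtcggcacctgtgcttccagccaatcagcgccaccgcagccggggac
Klf4: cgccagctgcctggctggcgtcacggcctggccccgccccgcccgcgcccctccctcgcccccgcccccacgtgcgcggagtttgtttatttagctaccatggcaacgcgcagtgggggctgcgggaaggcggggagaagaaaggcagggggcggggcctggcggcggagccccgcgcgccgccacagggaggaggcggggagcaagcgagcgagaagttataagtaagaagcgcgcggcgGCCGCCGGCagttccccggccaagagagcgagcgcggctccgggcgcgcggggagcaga

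The Grhl1 promoter shown lies on the plus strand at chr12:24572037-24572336, and those of Grhl3 and Klf4 on the minus strand at chr4:135573583-135573882 and chr4:55532426-55532725. The Grhl1 and Klf4 promoters shown hold 1 AP-2 match each and that of Grhl3 holds 0, which is a description of letters and not of binding. G and C made up 75.3% of the Grhl1 bases shown, 74.3% of the Klf4 bases and 58.3% of the Grhl3 bases, against a median of 52.7% over 32851 promoters of the table. Grhl1 has another promoter in the table, at chr12:24580469-24580768, which goes the other way. It holds 51.3% G and C and 0 AP-2 matches, and the first listed is the one shown. The table held 13 promoters of 6 of the 10 factors, namely Gata3, Klf4, Grhl3, Sox6, Grhl1 and Tfap2a. Of these 13, 3 held the AP-2 motif (with 3 matches in the Gata3 promoter), against 16.6% of all promoters, and 0 held the grainyhead motif AACCNGTT, which also reads the same on both strands and occurs in 2.09% of all promoters. Searched on both strands, the GATA motif AGATAA was in 1 of the 13 (11.2% of all promoters), the SOX motif ACAAT in 3 (31.0%) and the KLF motif GGGTGTGG in 1 (3.56%), and all of these were among the 6 promoters of Sox6. The TATA box TATAAA was in 2 of the 13, both of Sox6, against 13.6%. No matches in these 13 promoters overlapped one another.

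Compared per kilobase of annotated exon over all 10 libraries, Klf4 was the most abundant of the 10, at 5672 ± 969 counts per kb (SD, n = 10). Trp63 followed at 1760 ± 498, Gata3 at 1499 ± 258, Klf5 at 1292 ± 261, Grhl3 at 1115 ± 385, Ovol1 at 1041 ± 350, Grhl1 at 836 ± 189, Tfap2a at 598 ± 88.0, Zfp750 at 550 ± 214 and Sox6 at 103 ± 35.7. Klf4 lay above and Sox6 below all others in each of the 4 groups, with no overlap of libraries. The order between them differed by group. In control water libraries Trp63 (2047 counts per kb) stood clear of Gata3 (1526), whereas in knockout AOO libraries Gata3 (1211) and Trp63 (1192) overlapped, as did every neighbouring pair from Gata3 to Tfap2a. In knockout water libraries Grhl3 (1746) came next after Trp63, above Gata3 (1566) with no overlap. Together the 10 genes took 0.268% to 0.382% of a library's reads. Their counts vary most, on the log2 scale, for Sox6 (SD 0.68) and Ovol1 (SD 0.53) and least for Tfap2a (SD 0.21).

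**Figure D1:**
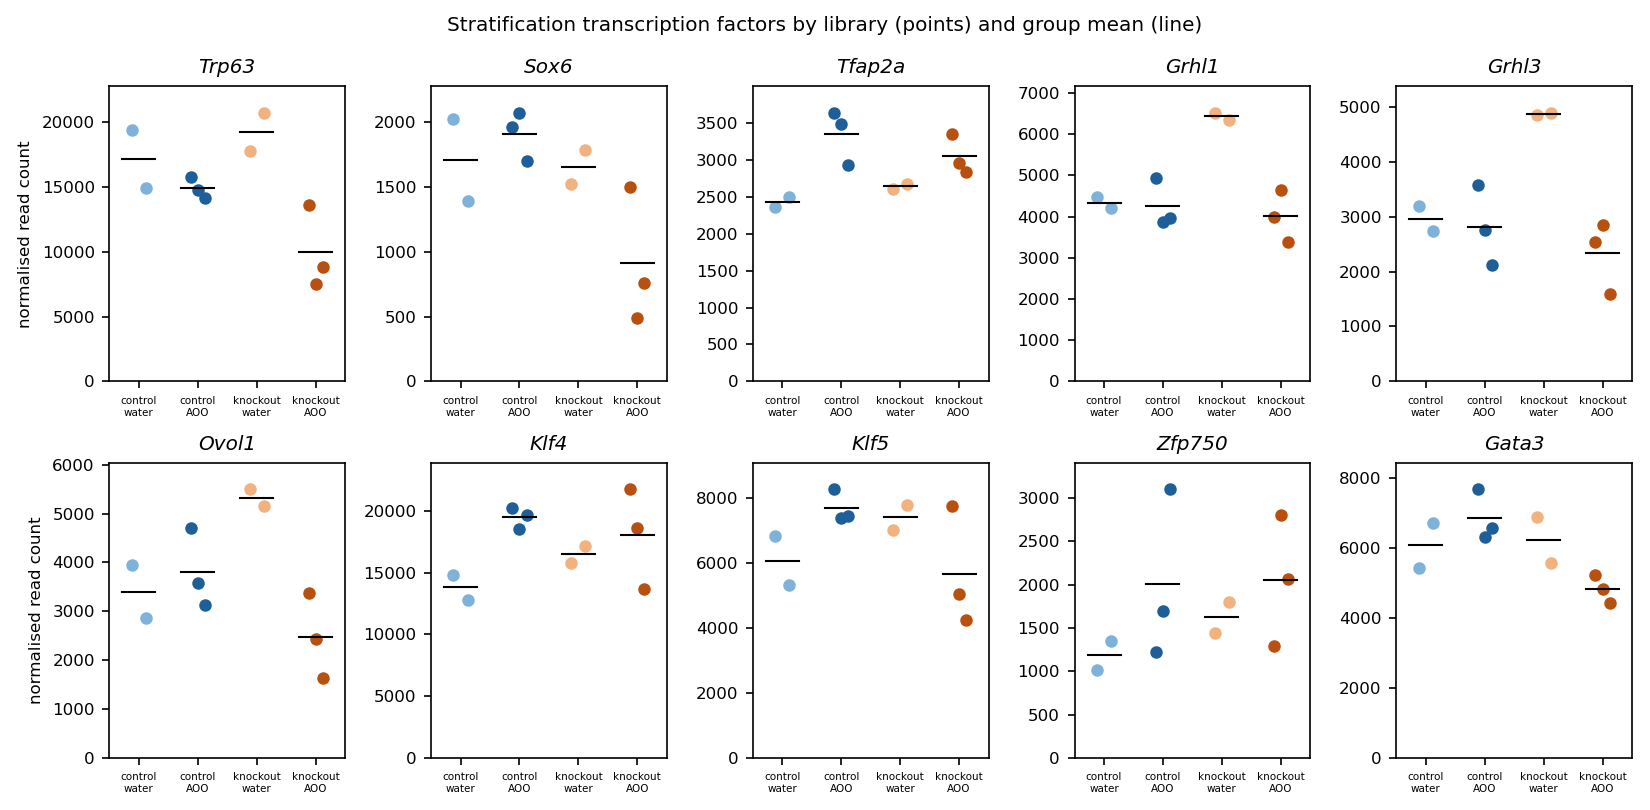
Normalised read counts (vertical axis, from 0) of each of the 10 factors in each of the 10 libraries, in 4 groups of 2 or 3; points are libraries and lines are group means. Trp63, Grhl1, Grhl3 and Ovol1 lay lower in all 3 knockout AOO libraries than in both knockout water libraries.

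The first comparison set AOO against water libraries of knockout mice. Of the 10 factors, 4 were lower under AOO, namely Trp63, Grhl1, Grhl3 and Ovol1, by 37.8% to 53.4% of their mean counts, and 0 were higher. Over all 15958 genes tested, 13.4% were called in this comparison, 6.74% higher and 6.69% lower (limma on log2(count + 1), Benjamini-Hochberg adjusted p under 0.05, two-sided). The median log2 difference of the 10 was -0.56, beside 0.009 for all genes tested. Without overlap, 6 of the 10 lay lower in all AOO than in all water libraries and 1 lay higher, where 29.2% and 28.8% of all genes did so.

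Among the factors of the basal layer, Trp63 stood at 13648, 7542 and 8828 normalised counts in the 3 knockout AOO libraries and at 17828 and 20743 in the 2 knockout water libraries. The groups did not overlap, and replicates 2 and 3 under AOO were the lowest of all 10 libraries for this gene. Its means were 10006 ± 3219 (SD, n = 3) and 19285 ± 2061 (SD, n = 2), a log2 difference of -0.99 ± 0.24 (SE, limma adjusted p = 0.029). The counts are per gene and do not separate the p63 isoforms.

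Sox6, which encodes a SOX protein known for holding cells back from differentiation in several lineages, stood at 1499, 493 and 758 counts under AOO and at 1526 and 1788 under water. These groups did not overlap either, but AOO replicate 1 lay only just below the lower water library. The log2 difference of -1.002 ± 0.37 (SE) did not pass (limma adjusted p = 0.0853), although it was as large as that of Trp63. Without knockout AOO replicate 1 it became -1.43 and passed (limma adjusted p = 0.0128). Tfap2a was at 3355, 2955 and 2832 counts under AOO and at 2611 and 2668 under water, a non-overlapping difference in the other direction that did not pass (log2 difference 0.20 ± 0.14, SE, limma adjusted p = 0.33).

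The grainyhead-like pair, which drive junction and barrier genes, both fell. Grhl3 was at 2542, 2848 and 1597 counts under AOO and at 4853 and 4888 under water. All AOO libraries lay below both water libraries, which differed little from each other, and the log2 difference was -1.11 ± 0.26 (SE, limma adjusted p = 0.0285). Grhl1 was at 3999, 4632 and 3380 counts under AOO and at 6514 and 6350 under water, again without overlap, with a log2 difference of -0.70 ± 0.17 (SE, limma adjusted p = 0.0298).

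Ovol1, a repressor that acts as basal cells commit to leave the cycle, showed the most negative difference of the 10. Its counts were 3371, 2443 and 1629 under AOO and 5495 and 5153 under water. The groups were well apart, and the log2 difference was -1.16 ± 0.28 (SE, limma adjusted p = 0.0303). An antisense gene, Gm31166, shares 19.8% of the Ovol1 exon bases and the NEBNext Ultra RNA kit named in the labels does not mark strand. Gm31166 itself held at most 6.08 counts in any library.

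None of the remaining 4 factors passed. Klf4, a barrier factor, was at 21729, 18573 and 13687 counts under AOO and at 15757 and 17177 under water, so that its libraries overlapped (log2 difference 0.10 ± 0.20, SE, limma adjusted p = 0.73). Its relative Klf5, which is known from proliferating keratinocytes, was at 7755, 5048 and 4256 under AOO and at 7043 and 7790.5 under water, also overlapping (-0.43 ± 0.23, SE, limma adjusted p = 0.208). It passed without knockout AOO replicate 1 (log2 difference -0.68, limma adjusted p = 0.0287).

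Zfp750, a target of p63 in terminal differentiation, was at 1290.4, 2804 and 2066 counts under AOO and at 1443 and 1803 under water. The AOO libraries ran both below and above the water libraries (log2 difference 0.28 ± 0.39, SE, limma adjusted p = 0.631). Gata3 was at 5215, 4829.6 and 4413 counts under AOO and at 6886 and 5572 under water. Its groups did not overlap and the difference did not pass (-0.37 ± 0.16, SE, limma adjusted p = 0.142).

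The 4 calls rest on few libraries. Control AOO replicate 2 belongs to neither group and enters only through the shared estimate of spread, the scaling and the filter. Without it 0 of the 10 factors passed (limma adjusted p = 0.0518 to 0.0536 for the 4), and 0 passed without knockout AOO replicate 3. Leaving out either knockout water library leaves 1 library in that group, so no call can rest on such a fit. The differences of the 4 then ran from -0.68 to -1.21. Without knockout AOO replicate 2 Grhl1 and Grhl3 passed, and without knockout AOO replicate 1 all 4 passed with Sox6 and Klf5. The differences of the 4 were negative in every one of the 18 alternative settings, which included scaling libraries to equal totals (a scaling that moved the median of all genes from 0.009 to 0.131 and the split of calls from 1076 higher and 1067 lower to 1346 and 845).

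Several other measurements moved with this comparison. Long genes were lower under AOO in knockout mice: the median log2 difference was -0.24 in the 3192 genes with the longest exons (7089 bases or more) and 0.23 in the 3192 with the shortest (up to 2037 bases). Trp63 (8391 bases) and Sox6 (14832) belong to the longest, whereas Grhl1 (5539), Ovol1 (3488) and Grhl3 (2789) lie between. With the trend of exon length removed from each library, an alternative added after the data were seen, the same 4 factors passed, at log2 differences of -0.79 for Trp63, -0.68 for Grhl1, -1.27 for Grhl3 and -1.23 for Ovol1 (limma adjusted p = 0.0373, 0.0353, 0.0244 and 0.0296).

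**Figure D2:**
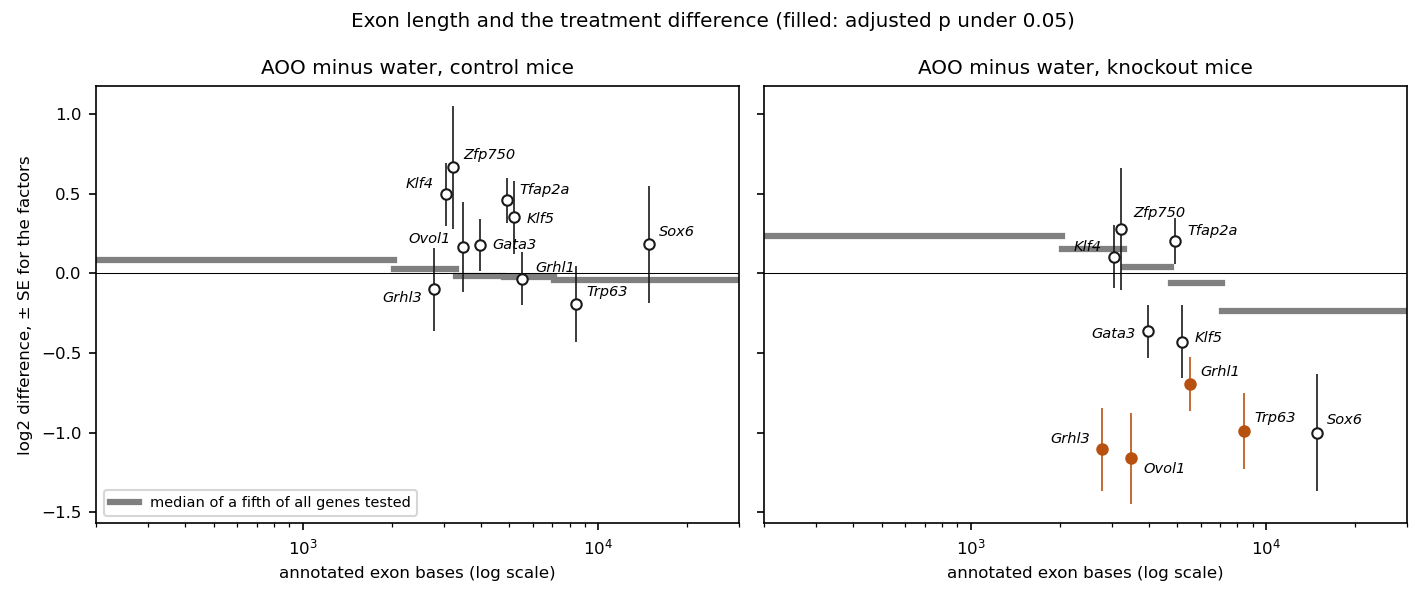
Log2 difference of AOO minus water (vertical axis, ± SE) against annotated exon bases (horizontal log axis) for the 10 factors in control mice (left) and knockout mice (right); grey bars are medians over 5 classes of all genes tested by exon length, and those of the shortest and longest class run on beyond the axis. In knockout mice the medians run from 0.23 to -0.24, and the filled points of the 4 factors called lie below them.

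Markers of other cells also differed between the knockout groups. All 5 red blood cell markers were called higher under AOO (summed 14407 to 27549 counts against 1176 to 2544 under water), as were 3 of 8 endothelial markers (summed 376 to 564 against 79.4 to 229). The 15 hair shaft and inner root sheath markers tested all had positive differences with 0 called (summed 443 to 2974 against 313 to 321), and 1 of 11 sebocyte markers was called higher (9462 to 21486 against 11914 to 13548). Of the 12 Langerhans and dendritic cell markers 1 was called higher (32008 to 54204 against 27630 to 29498), and of the 13 T cell markers 0 were called (14304 to 22617 against 23070 to 24913). Of the 8 fibroblast markers 2 were called higher and 1 lower (8498 to 10085 against 7192 to 10682). Among 12 outer root sheath and bulge markers 1 was called higher (29461 to 37279 against 22700 to 23318). Of 7 melanocyte and 7 skeletal muscle markers tested 0 were called. Within its group, knockout AOO replicate 2 was lowest for Trp63 and Sox6 but highest for Grhl1 (4632 counts), Grhl3 (2848) and Zfp750 (2804). Replicate 3 was lowest for Grhl1, Grhl3, Ovol1, Klf4, Klf5, Gata3 and Tfap2a. Replicate 2 had the group's highest sums of hair shaft and inner root sheath, sebocyte, Langerhans, red blood cell, endothelial and fibroblast markers. Its T cell, outer root sheath and melanocyte sums were the lowest. Its exon length trend was the steepest (longest minus shortest class, -0.43 against -0.18 and -0.16). All 5 red blood cell markers were called in every setting that kept both knockout water libraries. Without knockout AOO replicate 2 or 3, 0 genes of the other marker lists of this paragraph were called. Whether these cells had a part in the differences of the 10 factors was not tested.

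In control mice the same treatment left 0 of the 10 factors past the threshold, where 0.0627% of all genes (10 genes) passed, 0.0564% higher and 0.00627% lower. By contrast 2 of the 10 and 2051 of all genes had an unadjusted p under 0.05, and edgeR and DESeq2 called 7 and 354 genes and none of the 10. The median log2 difference of the 10 was 0.18, beside 0.0004 for all genes tested.

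Klf4 was at 20244, 18511 and 19619 counts in the control AOO libraries and at 14839.9 and 12792 in the control water libraries. The groups did not overlap, at means of 19458 ± 877 (SD, n = 3) and 13816 ± 1448 (SD, n = 2), and the log2 difference was 0.50 ± 0.20 (SE, limma adjusted p = 0.329). Tfap2a was at 3635, 3482 and 2929 under AOO and at 2362 and 2493 under water, with no overlap (log2 difference 0.46 ± 0.14, SE, limma adjusted p = 0.253). Klf5 was at 8281, 7390.4 and 7465 under AOO and at 6832 and 5324 under water (0.35 ± 0.23, SE, limma adjusted p = 0.544). These 3 of the 10 lay higher in all AOO libraries, as 12.2% of all genes did.

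The 4 factors called in knockout mice did not pass in controls. Trp63 was at 15822, 14790.3 and 14148 counts under AOO and at 19435 and 14911 under water, so that AOO replicate 1 lay above water replicate 2 and the groups overlapped (log2 difference -0.19 ± 0.24, SE, limma adjusted p = 0.762). Grhl3 was at 3577, 2761 and 2115 under AOO and at 3193 and 2734 under water (-0.10 ± 0.26, SE). Ovol1 was at 4714, 3588 and 3133 under AOO and at 3938 and 2857 under water (0.16 ± 0.28, SE), and both genes overlapped between the groups.

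Grhl1 was at 4946, 3863 and 3962 counts under AOO and at 4465 and 4196 under water, with a log2 difference of -0.03 ± 0.17 (SE). Sox6 was at 1965, 2073 and 1702 under AOO and at 2027 and 1393 under water (0.18 ± 0.37, SE). Zfp750 ran from 1221 to 3098 within the control AOO group alone, and Gata3 from 6326 to 7675, and both overlapped the water libraries (0.67 ± 0.39 and 0.18 ± 0.16, SE). The hair marker sum was 12331 in control water replicate 2, against 259 in replicate 1. Counts in replicate 2 were lower for Trp63, Sox6, Grhl1, Grhl3, Ovol1, Klf4 and Klf5, and higher for Gata3, Zfp750 and Tfap2a. Whether the cells behind this sum had a part in these counts was not tested.

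**Figure D3:**
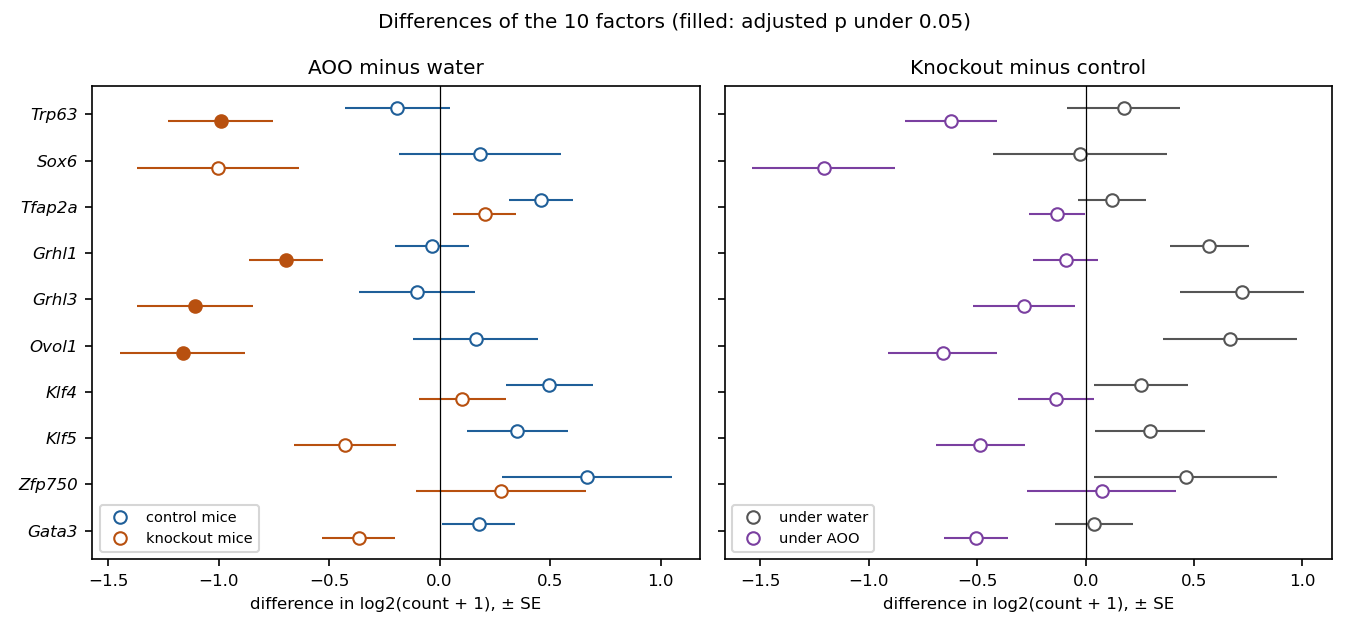
Differences in log2(count + 1) of the 10 factors with their SE (horizontal axis), for AOO minus water in each genotype (left) and knockout minus control under each treatment (right); filled points passed the adjusted p threshold of 0.05. The filled points are Trp63, Grhl1, Grhl3 and Ovol1 in knockout mice, from -0.70 to -1.16.

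Averaged over the 2 genotypes, AOO against water called 1 of the 10 factors, Trp63, at a log2 difference of -0.59 ± 0.17 (SE, limma adjusted p = 0.0458), where 12.8% of all genes were called, 6.88% higher and 5.92% lower. Grhl3 (-0.60 ± 0.19, SE, limma adjusted p = 0.0555), Tfap2a (0.33 ± 0.10, SE, limma adjusted p = 0.0551) and Grhl1 (-0.36 ± 0.12, SE, limma adjusted p = 0.065) lay just outside the threshold. The call of Trp63 was lost with the exon length trend removed (log2 difference -0.47, limma adjusted p = 0.0576), where Grhl3 and Tfap2a were called. Without control AOO replicate 2 or 3, control water replicate 1, knockout AOO replicate 2 or 3, or either knockout water library, 0 of the 10 were called. Tfap2a was also the only one of the 10 whose 6 AOO libraries (2832 to 3635 counts) all lay above its 4 water libraries (2362 to 2668), a separation that 4.49% of all genes showed in that direction. None of the 10 lay lower in all 6, as 3.43% of all genes did.

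Ratios between 2 factors of the same library do not depend on how libraries are scaled, but they still carry any trend of exon length. Trp63 (8391 bases) and Grhl1 (5539) are longer than Klf4 (3049), Tfap2a (4903) and Klf5 (5201), whereas Grhl3 (2789) is shorter than any of these. Whether exon length had a part in the ratios was not tested. Of the 45 ratios among the 10, 8 separated all AOO from all water libraries, where 7.97% of the pairs among all genes tested did so. The 8 were picked out after their values were seen and are given as a description. Counts per kb of Klf4 were 3.44 to 6.78 times those of Trp63 in the 6 AOO libraries and 2.10 to 2.43 times in the 4 water libraries. The ratio of Tfap2a to Trp63 ran from 0.354 to 0.671 under AOO and from 0.208 to 0.286 under water, and that of Klf5 to Trp63 from 0.778 to 1.08 and from 0.567 to 0.637. The other ratios of this kind were Klf4 to Grhl3, to Grhl1 and to Klf5, and Tfap2a to Grhl3 and to Grhl1. In all 8, Klf4, Tfap2a or Klf5 was the factor relatively higher under AOO.

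**Figure D4:**
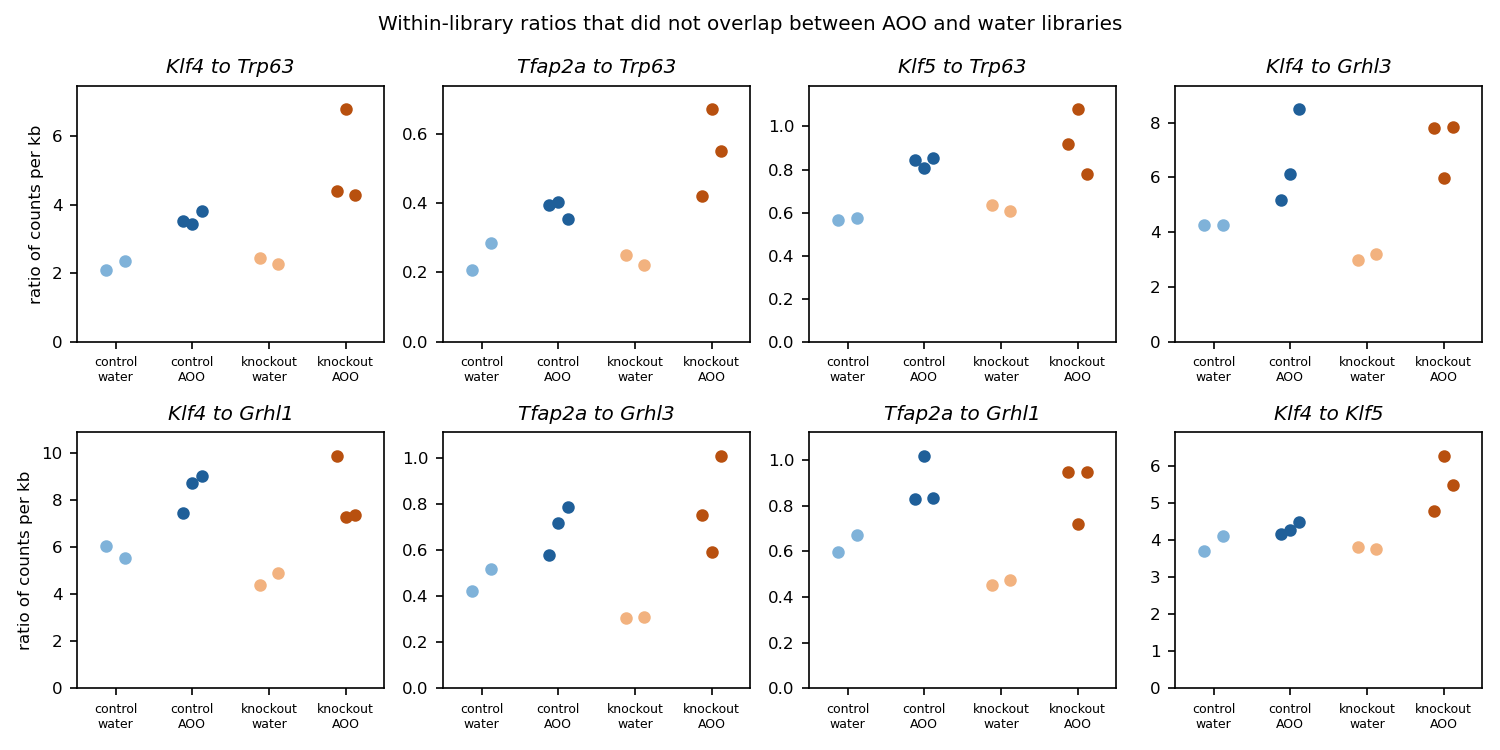
Ratio of counts per kb between 2 factors within each library (vertical axes, from 0), for the 8 of 45 pairs whose 6 AOO and 4 water libraries did not overlap; each point is a library. The Klf4 to Trp63 ratio lay between 3.44 and 6.78 under AOO and between 2.10 and 2.43 under water.

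Knockout against control under AOO called 0 of the 10 factors and 0% of all genes, with 1908 genes at an unadjusted p under 0.05, 0 genes by edgeR and 168 by DESeq2. Of the 10 differences, 9 were negative. In all, 3 factors lay lower in all knockout than in all control libraries, where 8.23% of all genes did so, and 0 lay higher, where 8.55% did. These were Trp63 (7542 to 13648 counts against 14148 to 15822, log2 difference -0.62 ± 0.21, SE), Gata3 (4413 to 5215 against 6326 to 7675, -0.51 ± 0.15, SE) and Sox6 (493 to 1499 against 1702 to 2073, -1.21 ± 0.33, SE), with limma adjusted p = 0.348, 0.319 and 0.314. Sox6 passed without knockout AOO replicate 1 (-1.64, limma adjusted p = 0.0411). Ovol1 (-0.66 ± 0.25, SE) and Klf5 (-0.49 ± 0.21, SE) overlapped through the first knockout library.

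Knockout against control under water also called 0 of the 10 and 0% of all genes, with 795 genes at an unadjusted p under 0.05, 0 genes by edgeR and 6 by DESeq2. Here 9 of the 10 differences were positive, and 7 factors lay higher in both knockout than in both control libraries, where 16.9% of all genes did so. With 2 libraries a group, Grhl3 was at 4853 and 4888 counts in knockout and 3193 and 2734 in control mice (log2 difference 0.72 ± 0.29, SE). Ovol1 was at 5495 and 5153 against 3938 and 2857 (0.67 ± 0.31, SE), and Grhl1 at 6514 and 6350 against 4465 and 4196 (0.57 ± 0.18, SE). All 3 had a limma adjusted p of 0.963. The other 4 were Zfp750 (0.46), Klf5 (0.30), Klf4 (0.26) and Tfap2a (0.12).

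The interaction, that is, whether AOO against water differed between the genotypes, was negative for all 10 factors, from -0.25 for Tfap2a to -1.33 ± 0.40 (SE) for Ovol1, beside a median of 0.03 for all genes. None of the 10 and 0% of all genes passed (lowest limma adjusted p = 0.356, Ovol1), and edgeR and DESeq2 called 0 and 196 genes and none of the 10. At the same time 7 of the 10 and 1897 of all genes had an unadjusted p under 0.05. The fall of Trp63, Grhl1, Grhl3 and Ovol1 in knockout mice is therefore not shown to differ from controls. These comparisons share libraries: the knockout water values of Grhl1, Grhl3 and Ovol1 are the highest of the 4 groups and enter the treatment difference, the genotype difference under water and the interaction alike.

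Profiles were compared by the root mean square difference of centred log2 counts over the 10 libraries, a description of likeness. Among the 10 factors the closest pair was Klf4 and Tfap2a (0.154), followed by Grhl1 and Grhl3 (0.214) and by Grhl3 and Ovol1 (0.223), and the farthest pair was Sox6 and Zfp750 (1.00). For Sox6, the most variable of the 10, the nearest of 11956 genes compared were Ctnnal1 (0.185), Sema3c (0.189) and Lama3, a laminin chain of the basement membrane (0.192), against a median of 0.704 over those genes. Lama3 stood at 4032, 1922 and 2656 counts in the knockout AOO libraries and at 4787 and 4954 in the knockout water libraries, in the same order as Sox6. For Ovol1 the nearest were Akirin1 (0.147), Zswim4 (0.149) and Ptges, a prostaglandin E synthase (0.154), against a median of 0.577.

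Other epidermal regulators, from lists chosen with earlier results of these data known, moved in both directions under AOO in knockout mice. Of 49 further transcription factors of the epidermis, 2 were called higher and 7 lower, with a median difference of -0.08, where 6.74% of all genes were called higher and 6.69% lower. The homeobox factor Barx2 rose (log2 difference 1.55 ± 0.36, SE) and the TEAD factor Tead3 fell (-0.71 ± 0.18, SE). Of 17 chromatin regulators 1 rose and 2 fell, namely Uhrf1, which maintains DNA methylation (1.08 ± 0.21, SE), Kdm6b, a demethylase of histone H3 (-1.44 ± 0.36, SE), and Chd4, a remodeller (-1.02 ± 0.28, SE). Calls lower lie above the share over all genes in both lists, but the counts are small, so nothing is read from them about these regulators as groups.

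Of 14 genes of the Notch pathway, which promotes the spinous fate, 4 fell and 0 rose, and 12 of the 14 differences were negative, where 6.69% of all genes fell and 49.5% of all differences were negative. The ligand Dll1 was at 1092, 541 and 717 counts under AOO and at 2005 and 2175 under water (log2 difference -1.47 ± 0.29, SE, limma adjusted p = 0.018), and the receptors Notch1 (-0.94 ± 0.23, SE) and Notch2 (-0.52 ± 0.15, SE) also fell. Of 15 basal layer genes 3 fell and 0 rose, among them the basal keratin Krt15 (-0.91 ± 0.19, SE) and the hemidesmosome gene Dst (-1.37 ± 0.39, SE). Differences were negative for 12 of the 15 and positive for 3. The keratin Krt14 of this list lay higher in all AOO libraries (200052 to 320163 counts against 156510 to 174876 under water). Summed counts of the list overlapped between the groups (607453 to 970899 against 734972 to 758107). Of 21 spinous and granular layer genes 6 rose and 1 fell, with Krt1, the suprabasal keratin, at 111680 to 236226 counts under AOO and 33582 to 46745 under water (1.92 ± 0.37, SE). Summed counts of these 21 were 698279 in knockout AOO replicate 2, 359532 in replicate 1 and 353053 in replicate 3. In the knockout water libraries they were 301054 and 322527. Calls in the first 4 of these 5 lists rest on single libraries. Without knockout AOO replicate 2 or 3 or control AOO replicate 2, at most 1 gene of each of the first 4 was called, while 5 spinous and granular genes still rose. Leaving out either knockout water library leaves 1 library in that group, so no call of any list can rest on such a fit. With the exon length trend removed 1 basal and 3 Notch genes fell. With equal totals 1 basal gene was called higher and 3 lower, and with DESeq2 1 higher and 6 lower. In control mice 0 genes of the first 4 of these lists were called and 1 of the 21 spinous and granular genes rose. Yet the differences of these 21 were positive for 19 in control mice (median 0.76) and for 13 in knockout mice (median 0.45). Krt1 had a log2 difference of 1.61 in control mice (limma adjusted p = 0.164). The rise of this list is thus not particular to knockout mice.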

How the data were processed

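RNA of back skin keratinocytes was measured in 10 libraries. The deposited values are a normalised read signal per gene, 1 file a library. Per the submitters' processing notes, the authors used Trimmomatic 0.38, featureCounts 2.0.0 and DESeq2 1.26.0 with GRCm38 (mm10). Which aligner, annotation release and strand option were used is not given in the sources used here. Dividing each library by its smallest increment turned 100% of its values into whole reads (to within 0.1 read), and these served edgeR 4.0.16 and DESeq2 1.42.0, as alternatives only.

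Symbols, coordinates and exon lengths came from GENCODE M21 of GRCm38, to which all 17983 identifiers matched. The filter kept 15958 genes, those present in all 10 files that reached 10 in 2 libraries or more. Libraries were divided by median-of-ratios factors (0.995 to 1.004). The test was limma 3.58.1 (R 4.3.3, with trend) on log2(value + 1), with 4 group means fitted to all 10 libraries, two-sided, with Benjamini-Hochberg adjustment over all genes tested and a threshold of 0.05. The added 1 shrinks differences of low genes. The fit was tested on simulated data.

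Other settings were a pseudocount of 8, no filter, equal totals, edgeR, DESeq2, a replicate block, the 2 groups alone and each library left out. The removal of the exon length trend was added after the data were seen. The 10 factors and all gene lists were chosen with earlier results of these data known. Named genes were the 10 factors, up to 3 called genes of each epidermal list with the lowest adjusted p in AOO against water in knockout mice, and the 3 nearest profiles of the 2 most variable factors. Of the genes this rule names, 2 are not reported here.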

Additional observations from a re-analysis of the deposited data

How the results depend on the processing

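Of 1060 alternative values of the 10 factors, 990 kept their direction and side of the threshold, 27 lost and 16 gained a call, and 27 changed sign over 12 of 60 results, none of them called. In knockout mice 4 factors were called under AOO in all settings with 10 libraries and in the fit of the 2 groups alone, and 0 to 6 with 1 library left out. For the average of the genotypes the count was 1 in the reported fit, 3 with equal totals, 2 with edgeR, 4 with DESeq2, 2 with exon length removed and 0 to 3 with a library left out. For the knockout under AOO it was 0 to 1 with a library left out.

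Counts over all genes moved more. For control treatment they were 10 as reported, 354 with DESeq2, 58 with the replicate block and 6 to 470 with a library left out. For knockout treatment they were 2143, 3626 with DESeq2, 3892 in the 2 groups alone and 9 to 3141 with a library left out. For the average they were 2043, 3666 with DESeq2 and 164 to 4155. The genotype comparison under AOO gave 0, with 168 by DESeq2, 1 with exon length removed, 2 in the 2 groups alone and 0 to 51 with a library left out. Under water it gave 0, with 6 by DESeq2 and 0 to 1. The interaction gave 0, with 196 by DESeq2 and 0 to 72.

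With a library left out, log2 differences crossed 0 for Sox6 (-0.086 to 0.45), Grhl1 (-0.15 to 0.033), Grhl3 (-0.29 to 0.087) and Ovol1 (-0.066 to 0.39) in control treatment, Klf4 (-0.047 to 0.29) in knockout treatment and Klf5 (-0.16 to 0.055) in the average. They also did for Grhl1 (-0.21 to 0.022), Klf4 (-0.29 to 0.042) and Zfp750 (-0.23 to 0.45) in the genotype comparison under AOO, and for Trp63 (-0.018 to 0.36), Sox6 (-0.30 to 0.24) and Gata3 (-0.12 to 0.19) under water. With equal totals 3 signs changed, for Klf5 in the average (0.0050), Grhl1 under AOO (0.0027) and Gata3 under water (-0.030). The cause was not tested.

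Same-numbered libraries correlated at -0.105 to 0.450 in their deviations from group means, and differently numbered ones at -0.450 to 0.347. In groups of 2 the deviations mirror each other, so these values cannot decide whether the numbers pair the libraries. The replicate block changed the sign of Grhl1 (0.049) and Grhl3 (0.12) in control treatment and of Klf5 (0.066) in the average. In the average it left Trp63 at -0.54 (limma adjusted p = 0.059) and called Tfap2a at 0.40 (limma adjusted p = 0.0321), and it changed no other call of the 10.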
